A study of Homo sapiens with 34 samples.

Results

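The interferon-stimulated genes described here are 47 genes that cells switch on in response to interferon. They were chosen by name, and all 47 were found among the 31975 genes measured in 34 established human B-cell lymphoma cell lines. The lines came from mantle cell lymphoma (MCL, n = 11), from Burkitt lymphoma (BL, n = 3) and from diffuse large B-cell lymphoma (DLBCL), which was divided into the germinal centre subtype (GCB DLBCL, n = 14) and the activated subtype (ABC DLBCL, n = 6). Each line was sequenced as 1 library of total RNA and the labels give no treatment, genotype or time, so there is no interferon-treated group. The libraries were made at several time points, which the labels do not assign to lines. By its title the series concerns the chemokine receptor CXCR4 as a target in MCL, and pathology is the grouping its labels give.

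Type I interferons bind the receptor formed by IFNAR1 and IFNAR2, whose kinases JAK1 and TYK2 phosphorylate STAT2. With IRF9 this factor forms part of a complex that binds the interferon-stimulated response element in the promoters of its target genes. The targets include RNA sensors, antiviral effectors and the transcription factor IRF7, which in turn drives interferon genes, while USP18 and SOCS1 dampen the signal. In B cells this response can be set off by viral nucleic acid, by Toll-like receptors such as TLR7 or by interferon from other cells.

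Promoters of some of the members called between pathologies are shown first, because most of the members share a sequence there. The members were chosen as genes that respond to interferon, which acts through the response element named above. The share of members with this sequence is therefore a description and not a separate result. The letters GAAANNGAAA, which form the core of the response element, were searched on both strands (TTTCNNTTTC on the other), where N is any base, in windows from 250 bases before to 50 bases after a gene's start from RefSeq (GRCh38.p14). Matches may overlap one another. Of the 37 members with a window, 26 (70.3%) held at least 1 match, against 1195 of 27305 genes (4.38%) over the whole table of promoters. By window, 31 of the 48 of members (64.6%) held at least 1 match, against 1255 of all 35116 (3.57%). A gene can have several windows, as 9 members did, and the one with most matches is shown. A match describes these letters and is not a measured binding site. The 150 bases before the start are given below, 5′ to 3′ on the strand of the gene, with each match in capitals. HERC5 (chr4:88456969-88457118, plus strand) held 3 matches, of which a pair overlapped, and IFIT3 (chr10:89332379-89332528, plus strand) held 2. IFITM1 (chr11:313890-314039, plus strand) held 2, of which the one across the start lies partly outside the bases shown, and IFITM3 (chr11:320861-321010, minus strand) held 2. LGALS3BP (chr17:78979924-78980073, minus strand), GBP1 (chr1:89065209-89065358, minus strand) and PARP14 (chr3:122680689-122680838, plus strand) held 1 each. XAF1 (chr17:6755297-6755446, plus strand) is shown as a member called between pathologies whose windows held none. IRF1 and RNF213, also called below, held none either and are not shown. LY6E, IRF7 and USP18, called below as well, had no window, so their promoters were not searched.
HERC5: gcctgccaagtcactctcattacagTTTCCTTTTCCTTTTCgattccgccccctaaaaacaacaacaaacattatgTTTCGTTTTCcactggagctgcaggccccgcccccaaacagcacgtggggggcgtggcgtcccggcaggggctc
IFIT3: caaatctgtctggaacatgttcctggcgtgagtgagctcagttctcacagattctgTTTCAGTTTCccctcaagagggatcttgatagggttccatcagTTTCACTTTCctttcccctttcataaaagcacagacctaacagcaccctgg
IFITM1: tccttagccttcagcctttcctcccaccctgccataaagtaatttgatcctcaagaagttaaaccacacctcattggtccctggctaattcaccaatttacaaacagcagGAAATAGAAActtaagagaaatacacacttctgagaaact
IFITM3: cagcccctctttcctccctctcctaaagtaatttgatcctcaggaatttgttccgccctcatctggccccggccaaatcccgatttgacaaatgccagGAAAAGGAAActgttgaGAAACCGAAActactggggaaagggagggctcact
LGALS3BP: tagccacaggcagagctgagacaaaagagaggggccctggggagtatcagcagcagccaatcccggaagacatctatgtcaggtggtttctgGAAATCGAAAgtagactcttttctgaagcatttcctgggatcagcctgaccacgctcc
GBP1: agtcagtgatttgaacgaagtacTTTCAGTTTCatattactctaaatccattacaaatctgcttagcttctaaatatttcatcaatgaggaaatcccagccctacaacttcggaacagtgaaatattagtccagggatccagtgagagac
PARP14: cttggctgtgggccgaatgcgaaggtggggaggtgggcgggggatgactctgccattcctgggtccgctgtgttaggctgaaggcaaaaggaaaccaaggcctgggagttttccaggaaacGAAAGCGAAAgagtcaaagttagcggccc
XAF1: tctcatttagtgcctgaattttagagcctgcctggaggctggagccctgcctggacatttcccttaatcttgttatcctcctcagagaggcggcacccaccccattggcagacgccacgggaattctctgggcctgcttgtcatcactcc

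Matches were not limited to the members that differed between pathologies. Of the 12 members called between MCL and GCB DLBCL below, 9 had a window and 7 of these held a match, and of the other members with a window 19 of 28 did.

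The values are the authors' variance-stabilised log2 values, on which a gene with 0 reads lies at 4.55 in every library. Libraries ranged from 2.55 to 165 M reads (1 M is 1e6), and 8 GCB DLBCL libraries held only 2.55 to 4.84 M, so that a single read there already lay between 5.29 and 5.63. These 8 libraries and the ABC DLBCL line NU-DUL-1 have 0 reads of ZNF593, a gene with at least 444 reads in each of the other 25, and they were treated as a separate class of libraries, defined from the values. Members at 0 reads numbered 14 (median) and up to 20 of 47 in the 8 shallow libraries and at most 5 in the other 26. Every comparison was therefore made in all 34 lines and again in the 25 lines with ZNF593 reads (11 MCL, 6 GCB DLBCL, 5 ABC DLBCL and 3 BL). The B-cell markers CD79A, CD79B, MS4A1 and PAX5 were read in all 34 lines. The MCL gene CCND1 lay at 12.59 or more in the MCL lines and at most at 10.43 elsewhere. Its lowest MCL value was that of JVM2, which also had 1 read of the MCL marker SOX11. Of the GCB DLBCL lines, DOHH-2 alone had 0 reads of the germinal centre marker BCL6 (group median 13.62). DOHH-2 also had the group's highest IRF4, a marker of activated B cells, at 14.45. NU-DHL-1 had the group's lowest value of the germinal centre marker MME, 6.05, and the CCND1 value of 10.43. All lines were kept in the group their label gives.

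The members varied more from line to line than most genes. Their median standard deviation over the 34 lines was 1.82 log2 units, against 0.70 over the 22167 genes that passed the filter on low values (more than 1 log2 unit above the lowest value in at least 3 lines), which all 47 members passed. The most variable were LY6E (SD 3.58), which encodes a surface protein of lymphoid cells, the dynamin-like GTPases MX1 (2.84) and MX2 (2.61), the membrane protein gene IFITM2 (2.77) and IFI44L (2.61). At the other end were RSAD2 (1.01), which encodes the antiviral enzyme viperin and was weakly expressed, and STAT2 (0.73) and IRF9 (0.78), which encode subunits of the complex that binds the response element. In 12 of the 47 members all 34 lines lay above the margin of the filter.

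**Figure D1:**
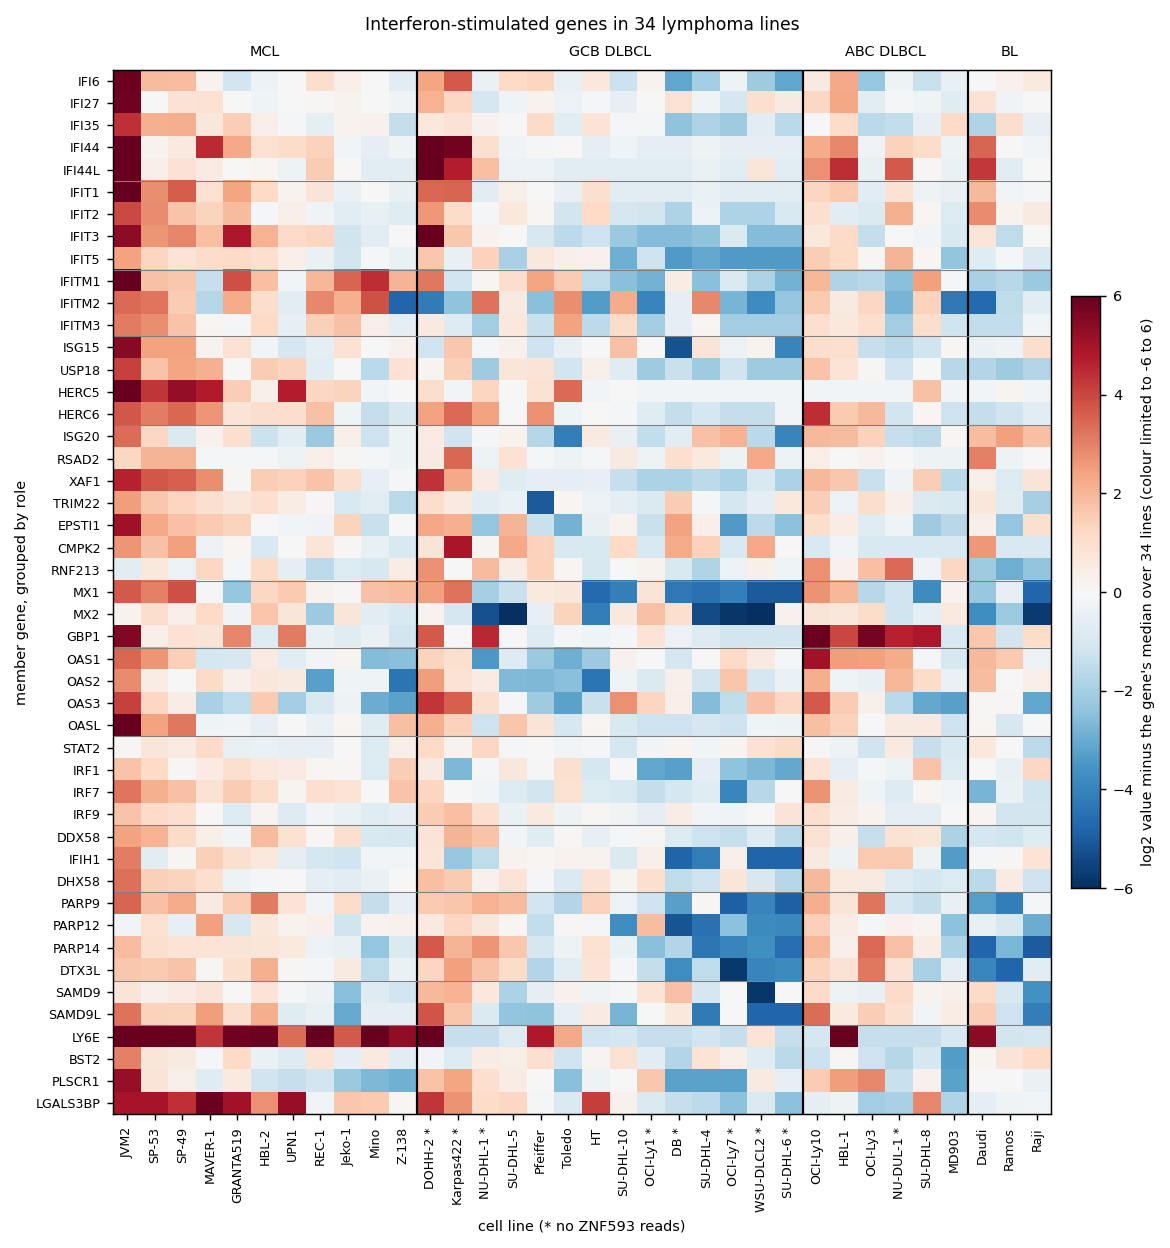
Colours show each member's log2 value minus its median over the 34 lines, limited to the range from -6 to 6. Rows are the 47 members grouped by role, columns are the lines by pathology and, within it, by their mean over the members, and an asterisk marks the 9 lines without ZNF593 reads. JVM2 and DOHH-2 form the darkest columns, and LY6E is high across the MCL lines.

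The mean over the 47 members summarised each line. In log2 units it was 9.05 ± 1.19 (SD, n = 11) for MCL, 8.42 ± 0.88 (SD, n = 6) for ABC DLBCL, 7.74 ± 1.06 (SD, n = 14) for GCB DLBCL and 7.58 ± 0.42 (SD, n = 3) for BL. The MCL lines ran from 7.75 in Z-138 over a median of 8.95 to 11.91 in JVM2, and the GCB DLBCL lines from 6.49 in SU-DHL-6 over 7.72 to 10.21 in DOHH-2. The ABC DLBCL lines lay between 7.16 in MD903 and 9.66 in OCI-Ly10 with a median of 8.26, and the BL lines were 7.29 in Raji, 7.38 in Ramos and 8.06 in Daudi. All groups overlapped, and neighbours in this order of means differed by less than the SD of the group with the larger spread. Without JVM2 the MCL mean was 8.76 ± 0.75 (SD, n = 10). The GCB DLBCL lines with ZNF593 reads (7.69 ± 0.40, SD, n = 6) and without them (7.78 ± 1.40, SD, n = 8) had close means but a different spread. Since the cells of a bulk library are pooled, fewer cells expressing a gene and less RNA of it per cell cannot be told apart in any of these values.

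**Figure D2:**
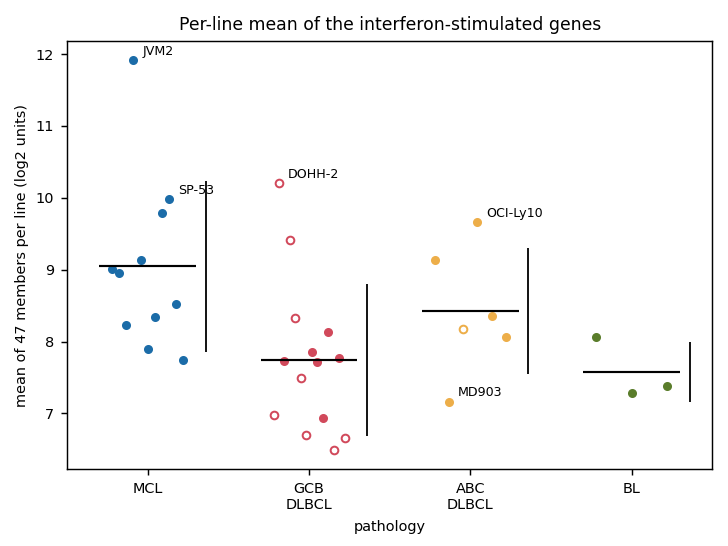
Points are the mean of the 47 members in each line (log2 units) by pathology, filled for lines with ZNF593 reads and open for those without; horizontal bars are group means and vertical bars ± 1 SD. JVM2 stands at 11.91, above all other lines, and the open GCB DLBCL points hold both the second highest line, DOHH-2 at 10.21, and the lowest, SU-DHL-6 at 6.49.

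JVM2, labelled as MCL, held the highest value of the 34 lines in 27 of the 47 members, while it was highest for 10.9% of all genes kept. It lay above the median of the lines in 45 members, all but the ubiquitin ligase RNF213 and the ADP-ribosyltransferase PARP12, and among the 3 highest lines in 38. IFI44L reached 15.27 there (42412 reads), against 13.40 in DOHH-2 and a median of 5.17, and its neighbour IFI44 reached 13.66 against 11.33 in DOHH-2. ISG15, a ubiquitin-like protein that is attached to other proteins during the response, lay at 15.25, with the next line, SP-49, at 12.20. The mitochondrial protein gene IFI27 lay at 11.40, with the next line, HBL-1, at 7.89. JVM2 also had the highest values of the interferon genes IFNA2 (7.80, 191 reads), IFNB1 (6.27, 40 reads) and IFNG (7.35, 129 reads). Of these ligands, IFNA2 had 0 reads in 32 lines, IFNB1 in 24 and IFNG in 21. Of 5 T-cell markers, TRAC (13.02) and CD2 (6.71) were highest of the 34 lines in JVM2. The others were not, CD3E lying at 6.93, CD3D at 4.96 and CD3G at 4.84 (1 read), and the part of these levels in the JVM2 values was not tested.

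**Figure D3:**
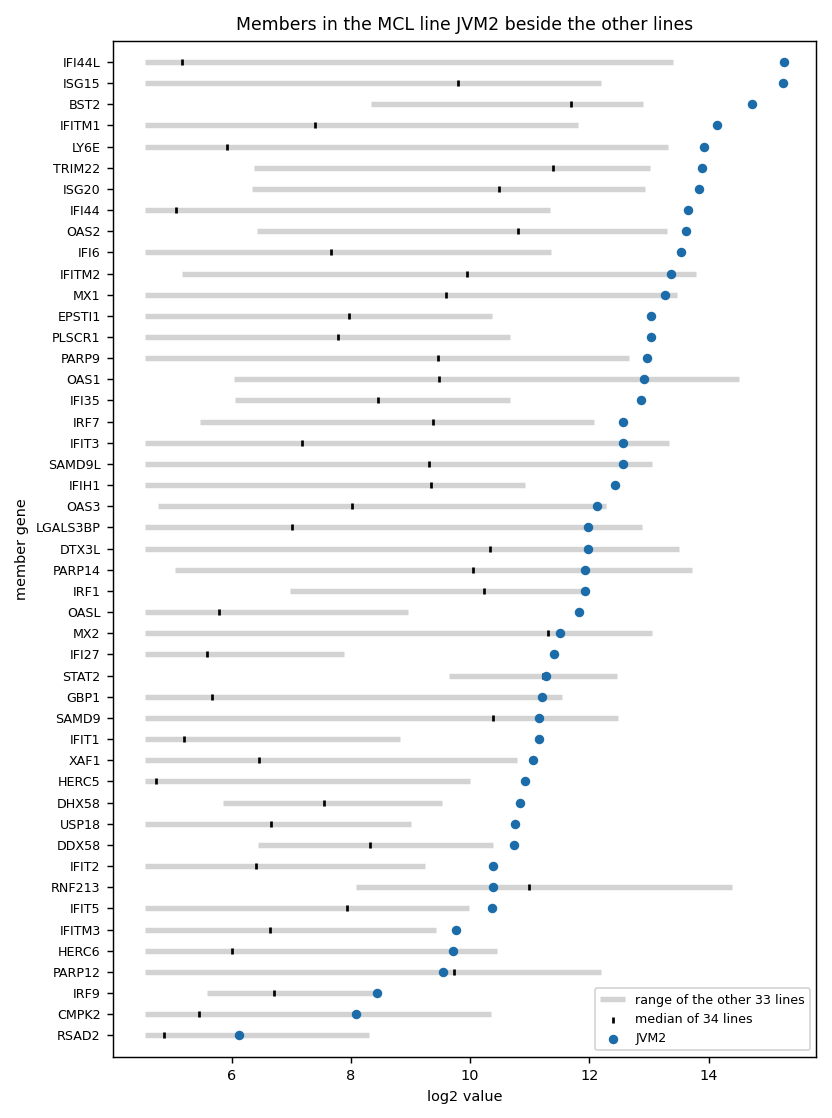
Blue points are the log2 values of the 47 members in JVM2, grey bars the range of the other 33 lines and black ticks the median of the 34 lines. In 27 members the JVM2 point lies beyond the grey bar, with the widest distance from the median for IFI44L.

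DOHH-2, labelled as GCB DLBCL but without reads of BCL6, came next, from a shallow library. It was the highest line for IFIT3 (13.33), OAS3 (12.28), PARP14 (13.73) and SAMD9L (13.05), and it was above the median in 44 members. Karpas422, another of the shallow GCB DLBCL libraries, was highest for RSAD2 (8.31), CMPK2 (10.35), IRF9 (8.50) and SAMD9 (12.48). These 4 of 47 members in each line stand beside 6.28% and 5.54% of all genes kept for which DOHH-2 and Karpas422 were highest, so the counts are near the background. RSAD2 and CMPK2, a nucleotide kinase gene, lie side by side in the genome. The MCL line SP-53 was the highest line for none of the members but lay above the median in 46. At the low end SU-DHL-6 and OCI-Ly7 of GCB DLBCL and MD903 of ABC DLBCL lay above the median in 8 members each.

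MCL was then compared with GCB DLBCL. In the MCL lines 12 members were higher and none lower, out of 47 tested (limma, Benjamini-Hochberg adjusted p under 0.05 over all genes), which is to be read against 11% of all genes tested that were called higher in this comparison. LY6E, the secreted galectin-3-binding protein LGALS3BP, 2 of the 3 IFITM genes, 2 of the 4 IFIT genes, MX1 and the transcription factors IRF7 and IRF1 were among them. The median difference over the 47 members was 1.25 log2 units, against -0.017 over all genes, and 40 of 47 differences were above 0 (48.9% of all genes). The p-values rest on the variation among lines with 1 library apiece. All 12 remained called when any 1 of the 34 lines was left out, JVM2 included.

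Among surface and secreted proteins, LY6E showed the largest difference. In MCL it ran from 9.26 in UPN1 over a median of 11.79 to 13.92 in JVM2, and in GCB DLBCL from 4.55 over 4.76 to 12.28 in DOHH-2. All 11 MCL lines were above the GCB DLBCL median and 4 above its highest line, since DOHH-2 and Pfeiffer (10.73) reached MCL levels. The 6 GCB DLBCL lines with 0 reads of LY6E were all shallow libraries. The difference was 5.69 ± 0.96 (SE, adjusted p = 0.0002, limma). LGALS3BP ran from 6.85 over 11.39 to 12.89 in MCL and from 4.55 over 6.53 to 11.32 in GCB DLBCL, a difference of 3.07 ± 0.80 (adjusted p = 0.0079, limma). The 3 highest GCB DLBCL values of LY6E were in lines of both library classes. BST2, which encodes the membrane tether tetherin, lay at a mean of 12.10 (n = 11) in MCL and 11.49 (n = 14) in GCB DLBCL, within the spread of the lines, and was not called, nor was the scramblase gene PLSCR1.

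Both genes of the IFITM family that passed, IFITM1 and IFITM3, encode membrane proteins that block the entry of enveloped viruses. IFITM1 ran from 6.02 in MAVER-1 over 9.38 to 14.14 in JVM2 in MCL, and from 4.55 over 6.37 to 10.54 in GCB DLBCL, a difference of 2.91 ± 0.78 (adjusted p = 0.0090, limma). IFITM3 lay at 7.68 ± 1.26 (SD, n = 11) against 5.93 ± 1.46 (SD, n = 14), a difference of 1.74 ± 0.52 (adjusted p = 0.017, limma). The third gene, IFITM2, differed by 2.20 with a wide spread, from 5.18 in Z-138 to 13.78 in Mino within MCL, and was not called. The 3 genes are close in sequence, and how reads shared between them were counted is not given in the sources used here, so the split between them is uncertain.

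The IFIT genes lie in a cluster on chromosome 10, and some proteins of this family bind viral RNA. IFIT3 (chr10:89327997-89340968) ran from 6.0 in Jeko-1 over 8.97 to 12.57 in JVM2 in MCL. In GCB DLBCL it ran from 4.55 over 5.77 to 13.33 in DOHH-2, the highest value of all lines, and the difference was 2.69 ± 0.78 (adjusted p = 0.015, limma). IFIT5 differed by 1.91 ± 0.60 (adjusted p = 0.022, limma), with all 11 MCL lines above the GCB DLBCL median as for IFIT3. IFIT1 and IFIT2 differed by 1.33 and 1.25 and were not called.

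Of the ISG15 system, the ligase HERC5 and the protease USP18, which removes ISG15 and restrains the receptor, were called. HERC5 had 0 reads in 16 of the 34 lines, 8 of them GCB DLBCL, 5 ABC DLBCL, 2 BL and 1 MCL. Of these GCB DLBCL lines all but HT and SU-DHL-4 were shallow libraries. In MCL it ran from 4.55 in Mino over 6.21 to 10.92 in JVM2, with 5 lines above the highest GCB DLBCL line, Toledo at 8.14, and the difference was 2.30 ± 0.60 (adjusted p = 0.0079, limma). USP18 lay at 7.73 ± 1.59 (SD, n = 11) in MCL and 5.84 ± 1.28 (SD, n = 14) in GCB DLBCL, a difference of 1.89 ± 0.52 (adjusted p = 0.011, limma). ISG15 itself, at 10.78 ± 1.84 and 9.23 ± 1.93, was not called.

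Of the antiviral GTPases MX1 (chr21:41420558-41459214) was called. It ran from 7.28 in GRANTA519 over 11.19 to 13.46 in SP-49 in MCL and from 4.55 over 6.55 to 12.87 in Karpas422 in GCB DLBCL, a difference of 3.31 ± 0.95 (adjusted p = 0.014, limma). GCB DLBCL lines lay at both ends, 5 of them between 10.18 (Pfeiffer) and 12.87. MX2 differed by 2.32 ± 0.87 and just missed the threshold (adjusted p = 0.0504, limma). XAF1, which encodes a pro-apoptotic antagonist of XIAP, ran from 5.94 over 7.94 to 11.06 in MCL and from 4.55 over 5.64 to 10.78 in GCB DLBCL, a difference of 2.27 ± 0.65 (adjusted p = 0.013, limma).

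Of the transcription factors, IRF7 (chr11:612555-615950) was the least dispersed of the called members within MCL besides IRF1. It ran from 9.42 in Mino over 10.46 to 12.57 in JVM2 in MCL, and from 5.48 in OCI-Ly7 over 8.57 to 10.68 in DOHH-2 in GCB DLBCL. All 11 MCL lines lay above the GCB DLBCL median and 5 above its highest line, and the difference was 2.04 ± 0.44 (adjusted p = 0.0024, limma). IRF1, a factor also induced by interferon gamma, differed by 1.79 ± 0.47 (adjusted p = 0.0082, limma). Its GCB DLBCL values differed with the library class, at 8.12 ± 1.45 (SD, n = 8) in the lines without ZNF593 reads and 10.21 ± 0.76 (SD, n = 6) in those with them, next to 10.81 ± 0.73 (SD, n = 11) in MCL. STAT2 and IRF9 differed by -0.22 and -0.26 and were not called.

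The other roles held no called member in this comparison. The 4 OAS genes, whose products make the activator of RNase L, had a median difference of 0.57, with OAS3 lowest of all members at -0.89 and OASL at 1.21. The RNA sensors DDX58 (RIG-I), IFIH1 (MDA5) and DHX58 had differences of 0.41 to 1.72, and the PARP and DTX3L genes of 1.06 to 2.06. The 5 genes of the IFI6, IFI27, IFI35 and IFI44 type lay between 0.38 and 1.29. IFI44L, which JVM2 and DOHH-2 led in their groups, had a median of 5.29 in MCL and 4.67 in GCB DLBCL.

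**Figure D4:**
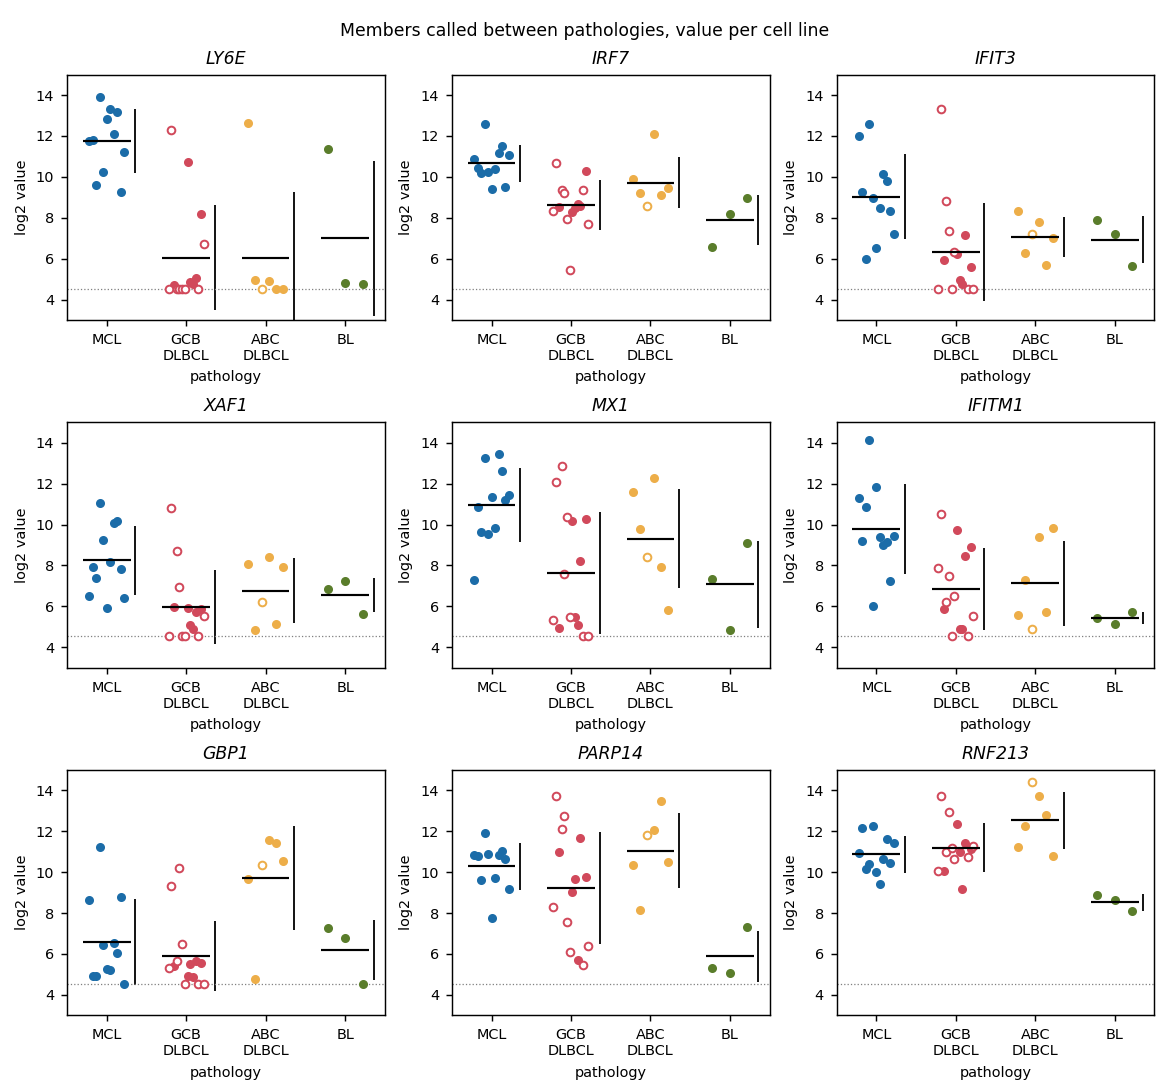
Each panel shows the log2 value of a member in the 34 lines by pathology, filled for lines with ZNF593 reads and open for those without, with group means as horizontal and ± 1 SD as vertical bars; the dotted line is the value of 0 reads. LY6E is above 9 in all MCL lines, GBP1 is high in 5 of 6 ABC DLBCL lines, and PARP14 and RNF213 are low in the 3 BL lines.

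Among the 25 lines with ZNF593 reads 4 members were called higher in MCL than in GCB DLBCL and none lower, against 2.13% of all genes called higher. These were LY6E (5.34 ± 1.205, SE, adjusted p = 0.015, limma), IFIT3 (3.25 ± 0.77, adjusted p = 0.021), XAF1 (2.67 ± 0.70, adjusted p = 0.033) and IRF7 (1.87 ± 0.47, adjusted p = 0.028). The 6 GCB DLBCL lines lay low and close together in some of them. XAF1 ran from 4.88 to 5.98 there, below 10 of the 11 MCL lines, and IFIT3 from 4.79 to 7.15, below 9. LY6E was low in HT (4.74), SU-DHL-4 (4.79), SU-DHL-10 (4.88) and SU-DHL-5 (5.09) and high in Toledo (8.21) and Pfeiffer (10.73). MX1 had a larger difference than in all lines, 3.58 ± 1.05, but missed the threshold (adjusted p = 0.058, limma). IRF1 and IFITM3 had smaller differences here, 0.60 and 0.82, and were not called, and BST2 differed by 0.067. Over the 47 members the median difference was 1.13, against 0.039 over all genes, with 45 of 47 above 0 (53.5% of all genes). The LY6E call held with any 1 of the 25 lines left out, whereas IFIT3 held in 23, IRF7 in 20 and XAF1 in 19 of the 25 fits. All 3 were lost, at adjusted p of 0.059 to 0.084 (limma), without SU-DHL-10 or SU-DHL-4, IRF7 and XAF1 also without HT or SU-DHL-5, IRF7 without Pfeiffer, and XAF1 without SP-49 or SP-53. With the library class as a covariate in the 34 lines, 1 of 47 members was called higher, against 1.75% of all genes, a share near the background.

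**Figure D5:**
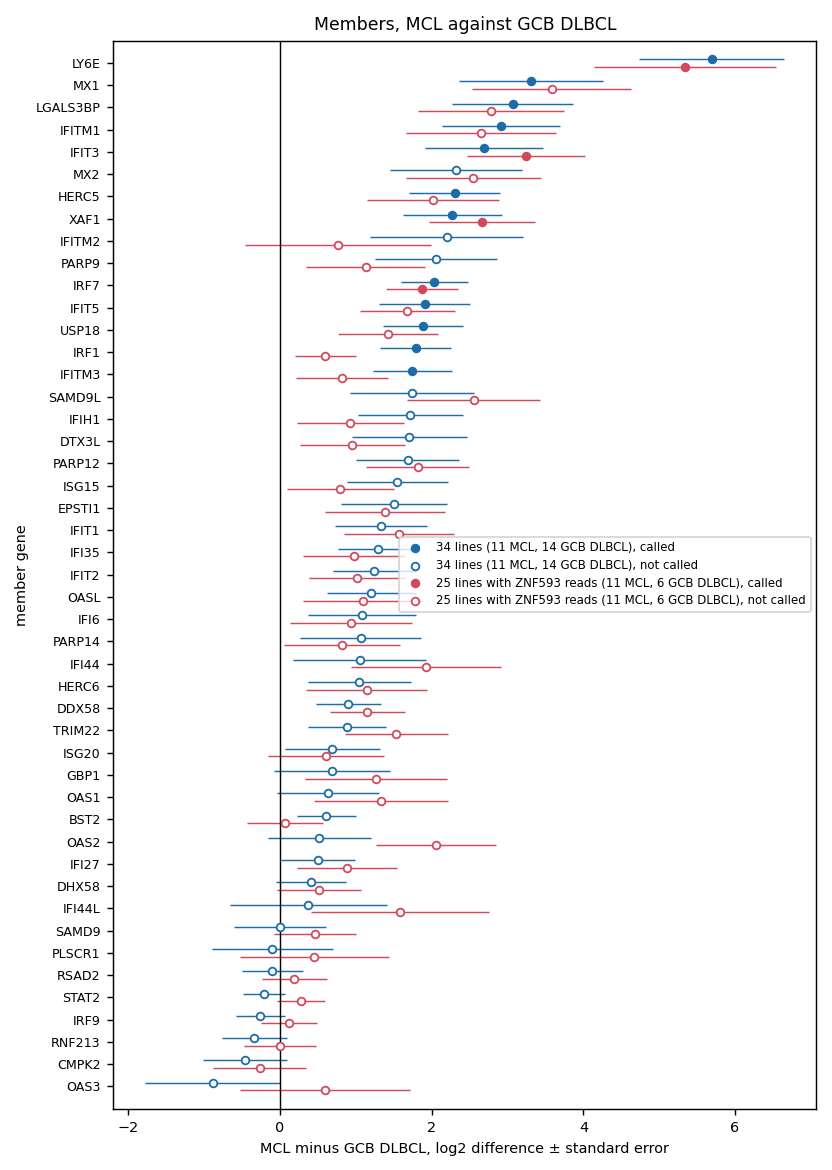
Points are the differences MCL minus GCB DLBCL (log2) of the 47 members with their standard errors, in blue for the 34 lines and in red for the 25 lines with ZNF593 reads, filled where adjusted p was under 0.05. LY6E stands apart at 5.69 and 5.34, most differences lie to the right of 0 in both fits, and 12 blue and 4 red points are filled.

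MCL was next set against ABC DLBCL. LY6E alone was higher in MCL, by 5.72 ± 1.21 (SE, adjusted p = 0.014, limma), 1 of 47 members against 0.523% of all genes called higher. The ABC DLBCL values were 4.55 in NU-DUL-1, OCI-Ly3 and SU-DHL-8, all at 0 reads, 4.92 in OCI-Ly10, 4.96 in MD903 and 12.62 in HBL-1. HBL-1 thus lay within the MCL range and the other 5 lines below all MCL lines. Among lines with ZNF593 reads LY6E was again the 1 member called (0.510% of all genes higher), by 5.42 ± 1.28 (adjusted p = 0.043, limma). That call was lost at adjusted p up to 0.13 in 12 of the 25 fits with a line left out, namely without SU-DHL-5, any ABC DLBCL line but HBL-1, or GRANTA519, HBL-2, Mino, REC-1, SP-49, SP-53 or Z-138. The median over the members was 0.52 in 34 lines, against -0.016 over all genes, with 33 of 47 above 0 (48.0% of all genes). LGALS3BP differed by 3.93 ± 1.005 (adjusted p = 0.056, limma) and GBP1 by -3.11 ± 0.96 (adjusted p = 0.14, limma). Without JVM2 the GBP1 difference was -3.57 and passed (adjusted p = 0.038, limma), as it did without MD903 (adjusted p = 0.024).

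Against BL the MCL lines were higher in IRF7, by 2.77 ± 0.71 (SE, adjusted p = 0.044, limma), 1 of 47 members against 0.794% of all genes called higher. The BL values were 6.56 in Daudi, 8.17 in Raji and 8.97 in Ramos, all below the lowest MCL line, Mino at 9.42. The call held in 24 of 34 fits with a line left out and was lost without any 1 of the BL lines, at adjusted p = 0.41 without Daudi (limma), or without GRANTA519, HBL-2, Jeko-1, MAVER-1, SP-49, SP-53 or Z-138. Daudi was the shallowest BL library, with 22.6 M reads against 59.1 M in Ramos and 92.4 M in Raji. It was also the only BL line that the labels do not mark as re-analysed. In the re-analysed lines no member was called between MCL and BL or between BL and ABC DLBCL. The 25-line fit, which holds the same MCL and BL lines but fewer others to set the spread, called 4 members (1.38% of all genes higher). These were PARP14 (4.40 ± 0.98, adjusted p = 0.017, limma), DTX3L (3.72 ± 0.89, adjusted p = 0.026), IRF7 (2.77 ± 0.61, adjusted p = 0.015) and RNF213 (2.33 ± 0.61, adjusted p = 0.044). PARP14 and the ubiquitin ligase DTX3L belong to the ADP-ribosylation branch of the response and lie near each other on chromosome 3. All 4 were lost when Daudi was left out, at adjusted p of 0.13 to 0.19 (limma), IRF7, PARP14 and RNF213 also without Raji, and DTX3L and RNF213 without Ramos. RNF213 was further lost without SU-DHL-10, GRANTA519, HBL-2, MAVER-1, SP-49, SP-53 or Z-138. In 6 members every MCL line lay above every BL line, against 2.52% of all genes kept, namely IFITM1, USP18, IRF7, PARP14, LGALS3BP and RNF213. USP18 had 0, 1 and 3 reads as lowest, median and highest of the BL lines and IFITM1 7, 9 and 23.

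BL and ABC DLBCL differed in RNF213 (chr17:80260852-80398794), a large ubiquitin ligase that acts on bacteria and lipid droplets. RNF213 was 8.08 in Ramos, 8.63 in Raji and 8.87 in Daudi, and 10.79 in SU-DHL-8, 11.23 in HBL-1, 12.25 in MD903, 12.80 in OCI-Ly3, 13.72 in OCI-Ly10 and 14.39 in NU-DUL-1. It was lower in BL by -4.00 ± 0.75 (SE, adjusted p = 0.014, limma), 1 of 47 members against 0.0496% of all genes called lower. The call was lost without Daudi (adjusted p = 0.059) or Ramos (0.071). With the 9 libraries left out RNF213 (-3.63 ± 0.68, adjusted p = 0.011, limma) and PARP14 (-4.996 ± 1.102, adjusted p = 0.034, limma) were lower, against 0.309% of all genes. PARP14 was 5.05 in Raji, 5.30 in Daudi and 7.33 in Ramos and ran from 8.14 in MD903 to 13.46 in OCI-Ly3 in ABC DLBCL. The PARP14 call was lost without Daudi, Raji, OCI-Ly10 or OCI-Ly3 and that of RNF213 without Ramos. BST2 lay the other way, at 11.84, 12.48 and 12.90 in the BL lines and between 8.34 and 11.79 in ABC DLBCL, and was not called in this pair (2.13 ± 0.68, adjusted p = 0.25, limma).

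BL and GCB DLBCL showed no member past the threshold by limma in 34 lines. Over all genes 0.0902% were called higher in BL and 14 of 22167 lower. An unadjusted p under 0.05 (limma) was found for 3 members (15% of all genes). No member passed in the 25 lines either (0.0977% of all genes higher and 11 of 18432 lower), with 6 at an unadjusted p under 0.05 (8.45% of all genes). RNF213 lay at most at 8.87 in BL and at 9.18 in the lowest GCB DLBCL line, SU-DHL-4. The share of all genes without overlap in this pair is not given here, so this gap is a description. The RNF213 difference of -2.66 ± 0.67 was not called (adjusted p = 0.0996, limma). The median over the members was -0.12 in 34 lines, near the -0.15 over all genes.

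ABC and GCB DLBCL differed in GBP1 (chr1:89052319-89065208), a guanylate-binding GTPase strongly induced by interferon gamma. GBP1 was 4.76 in MD903, from 1 read, and 9.66 in HBL-1, 10.33 in NU-DUL-1, 10.54 in SU-DHL-8, 11.39 in OCI-Ly3 and 11.55 in OCI-Ly10. In GCB DLBCL it ran from 4.55 over 5.47 to 10.19 in NU-DHL-1, with DOHH-2 (9.32) as the other high line. The difference was 3.80 ± 0.93 (SE, adjusted p = 0.044, limma), 1 of 47 members against 0.392% of all genes called higher. It passed in 16 of 34 fits with a line left out and stood at adjusted p = 0.16 (limma) without OCI-Ly10. The other losses followed the removal of HBL-1, OCI-Ly3, SU-DHL-8, Raji, the MCL lines HBL-2, MAVER-1, Mino and SP-49, or the GCB DLBCL lines DB, HT, Karpas422, OCI-Ly7, SU-DHL-10, SU-DHL-4, SU-DHL-5, SU-DHL-6 and WSU-DLCL2. In the 25 lines the difference was larger, 4.25 ± 1.12, the GCB DLBCL lines lying between 4.88 and 5.68, but missed the threshold (adjusted p = 0.10, limma), which it passed without MD903 (adjusted p = 0.024). There no member was called (0.136% of all genes higher) and 7 had an unadjusted p under 0.05 (10.9% of all genes).

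Over all 4 pathologies at once, 11 of 47 members differed by limma's moderated F test, against 13.2% of all genes. They were LY6E, RNF213, IRF7, LGALS3BP, IFITM1, HERC5, USP18, GBP1, BST2, IRF1 and PARP14, with adjusted p from 0.00081 for LY6E to 0.041 for PARP14. In the 25 lines 5 members passed, against 4.26% of all genes, namely LY6E, IRF7, RNF213, PARP14 and MX2. With each line left out in turn, BST2 held in 27, GBP1 in 30, IRF1 in 24 and PARP14 in 21 of 34 fits and the other 7 in all, while in the smaller set MX2 held in 7 of 25, PARP14 in 23 and RNF213 in 24. The 6 pairwise comparisons share lines, so their differences are not separate observations.

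The rest of the pathway was described from a list of 79 other genes, of which 74 were measured and 70 passed the filter. Of the interferon genes IFNG alone passed the filter, and outside JVM2 it was highest in SU-DHL-6 (7.07). The receptor genes IFNAR1 (10.28 to 13.56) and IFNAR2 (9.11 to 11.71) were read in all lines. In MCL against GCB DLBCL 17 of the 70 genes were higher (11% of all genes) and 3 lower (12.7% of all genes), with a median difference of 0.46. The largest were NMI (2.66 ± 0.59, SE, adjusted p = 0.0027, limma), a STAT-interacting protein, the RNA helicase MOV10 (2.56 ± 0.61, adjusted p = 0.0047), the endosomal RNA receptor TLR7 (2.52 ± 0.76, adjusted p = 0.018) and IRF5 (2.42 ± 0.42, adjusted p = 0.0003), a factor downstream of TLR7. ZNFX1, an RNA helicase-like sensor, was lower in MCL than in GCB DLBCL (-1.26 ± 0.26, adjusted p = 0.0013, limma) and than in ABC DLBCL (-1.29 ± 0.32, adjusted p = 0.047, limma), the latter in 15 of 34 fits with a line left out and at adjusted p = 0.13 without OCI-Ly10.

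In the 25 lines 8 of 68 pathway genes were higher in MCL than in GCB DLBCL (2.13% of all genes) and 1, SOCS1, lower (1.28% of all genes). MLKL, which encodes the executor of necroptosis, ran from 7.17 to 9.44 in MCL and from 4.79 to 6.68 in these GCB DLBCL lines (2.44 ± 0.42, adjusted p = 0.0020, limma). MOV10 ran from 10.15 to 12.06 in MCL and from 5.69 to 10.01 in these GCB DLBCL lines (2.64 ± 0.60, adjusted p = 0.015, limma). TLR7 differed by 3.40 ± 0.73 (adjusted p = 0.011, limma). SOCS1, the feedback inhibitor of the JAK kinases, lay at 8.29 ± 1.65 (SD, n = 11) in MCL and 10.71 ± 0.75 (SD, n = 6) in GCB DLBCL (-2.42 ± 0.68, adjusted p = 0.047, limma), a call that held in 5 of 25 fits with a line left out. MLKL was also higher in ABC than in GCB DLBCL, by 2.39 ± 0.52 in 34 lines (adjusted p = 0.022, limma) and 2.74 ± 0.50 in 25 (adjusted p = 0.022, limma), calls lost without OCI-Ly10 or OCI-Ly3 and, in the 25 lines, without SU-DHL-10, SU-DHL-4 or SU-DHL-5. Against BL, MCL was higher in MOV10 (3.93 ± 0.99, adjusted p = 0.039, limma) and MLKL (2.64 ± 0.69, adjusted p = 0.049, limma). Both were lost without Daudi, at adjusted p of 0.37 and 0.38 (limma). MOV10 held in 27 of 34 fits with a line left out and was also lost without Ramos, HBL-2, MAVER-1, SP-49, SP-53 or Z-138. MLKL held in only 11, being also lost without Raji, any ABC DLBCL line, any MCL line but Mino and Z-138, or DB, HT, Karpas422, SU-DHL-10, SU-DHL-5 or SU-DHL-6.

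Of 3 markers of plasmacytoid dendritic cells, the main producers of interferon alpha in blood, LILRA4 differed most between the pathologies. Its median in MCL was 9.87, with up to 15.01 in SP-49. It reached 14.41 in HBL-1 of ABC DLBCL and at most 6.79 in GCB DLBCL. The mean of IL3RA was 7.04 in MCL, 6.78 in ABC DLBCL, 6.33 in GCB DLBCL and 4.83 in BL. In the GCB DLBCL lines without ZNF593 reads the IL3RA mean was 7.27. CLEC4C, the defining marker, was at most 6.25 in MCL and 7.04 in ABC DLBCL, and had 0 reads in 13 of 14 GCB DLBCL lines. Summed over LILRA4, CLEC4C and IL3RA, the log2 level lay between 7.94 and 15.02 in MCL, 0 and 8.81 in GCB DLBCL, 2.10 and 14.47 in ABC DLBCL and 4.30 and 5.64 in BL. The highest sums in MCL and ABC DLBCL came mostly from LILRA4. The 5 myeloid markers reached at most 8.80 in any line. Of 3 fibroblast markers, COL1A1 had a median of 7.58 in MCL and 5.19 in GCB DLBCL, COL1A2 was at 0 reads in 24 of 34 lines, and DCN was at 0 reads in 10 of 11 MCL lines but reached 13.64 in Karpas422 and 11.38 in SU-DHL-4. Of the T-cell markers, Karpas422 had the highest CD3G (12.13), followed by the MCL line Z-138 (8.63). The other T-cell markers in Karpas422 were TRAC at 7.49, CD3D at 6.51, CD3E at 6.38 and CD2 at 0 reads. CD3E (9.94) and CD3D (7.18) were highest in the MCL line REC-1. The part of these levels in the member differences was not tested.

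The levels of the members varied together over the lines, with higher correlations than between genes in general. The mean Pearson correlation between pairs of members was 0.37 over 34 lines and 0.39 over the 25 with ZNF593 reads, against 0.011 and 0.0085 over all genes kept, and it was 0.28 over these lines without JVM2 (n = 24, 0.0079 for all genes). The libraries are shared by all genes, and depth varied between them, so these values are descriptions. With the mean of the other members, over 25 lines, IFIT1 (0.88), USP18 (0.85), XAF1 (0.85) and IFIT3 (0.82) were most alike, and ISG20 (0.26), an RNA exonuclease gene, RNF213 (0.28), IFITM2 (0.35) and BST2 (0.36) least. Without JVM2 the highest were XAF1 (0.81), HERC6 (0.80), USP18 (0.80) and IFIT1 (0.77). LY6E, the member with the widest difference between pathologies, had 0.52 with JVM2 and 0.46 without.

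Several members are neighbours in the genome, and 20 pairs of them had a median correlation of 0.73 over 25 lines, from 0.42 for IFITM1 and IFITM2 to 0.95 for PARP9 and DTX3L. PARP9 (chr3:122527924-122564784) and DTX3L (chr3:122564338-122575203) overlap by 447 bases in the annotation, and RSAD2 and CMPK2 (0.82) by 751. Whether reads were counted by strand is not given in the sources used here, so reads from these shared stretches cannot be told apart, while reads from the rest of each gene are not affected. IFI44 and IFI44L reached 0.89 with JVM2 and 0.72 without it. The IFIT genes ranged from 0.52 for IFIT2 and IFIT5 to 0.86 for IFIT1 and IFIT3.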

How the data were processed

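RNA sequencing values of 34 cell lines, 1 library each, were used. The authors deposited variance-stabilised read counts per gene on a log2 scale. The submitters' processing notes name STAR 2.5.3a, R 3.6.1, DESeq2 1.26.0 and GRCh38 without a role for each. The counter, the annotation and strand handling are not given in the sources used here. Inverting the transform at the lowest value gave whole reads (tolerance 0.05) for 100% of values, which serve as depth and reads only. Pathology came from the labels.

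One mean per pathology was fitted with limma 3.58.1 (R 4.3.3, trended prior) to genes more than 1 log2 unit above the lowest value in at least 3 lines, 22167 for 34 lines and 18432 for the 25 lines with ZNF593 reads. P-values were adjusted by Benjamini-Hochberg over these genes, with a threshold of 0.05. The fit was tested on simulated data. Summaries used Python 3.11.15, NumPy 2.4.6 and pandas 2.3.3.

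The members, the pathway and marker lists and the library class were chosen with earlier results of these data known. Named genes were members called in either fit, the 5 most variable, LY6E, IFITM1 and IRF7, and up to 4 called pathway genes with the largest difference per comparison; other members and pathway genes were named after their values were seen. Alternatives were other filters, normalizations, priors, sample sets, the library class as a covariate, and leaving out each line. Some measured genes are not reported here.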

Additional observations from a re-analysis of the deposited data

Results flagged for a closer look

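Single lines stood far from the rest of their group in 10 of 54 groups of 6 lines, by the gap to the nearest line over the range of the group. A chance rate of about 1 in 20 groups would apply to independent values with a normal distribution. The count cannot be set against that rate, because several of these values come from the same line and some groups hold several lines at the lowest value. Most of the genes were also chosen for being called or most variable in these data. The flagged values are therefore descriptions, and an excess over chance was not tested.

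Among the 6 ABC DLBCL lines, OCI-Ly10 was highest for IRF7 at 12.08, with the next line at 9.89. HBL-1 was highest for LY6E at 12.62, with the next at 4.96. SU-DHL-8 was highest for HERC5 at 6.51, the other 5 lines being at 0 reads, and for LGALS3BP at 9.89, with the next at 6.73. SU-DHL-8 was also lowest for the pathway gene ZNFX1 at 9.86, with the next at 11.23. MD903 was lowest for GBP1 at 4.76, with the next at 9.66.

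Among the 6 GCB DLBCL lines with ZNF593 reads, Toledo was highest for IRF7 at 10.28, with the next at 8.66, and for HERC5 at 8.14, with the next at 5.64. Toledo was lowest for BST2 at 10.51, with the next at 11.87. SU-DHL-4 had the lowest mean over the 47 members at 6.93, with the next at 7.71.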

How the results depend on the processing

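Counts of called members depended on the libraries used. From 12 in MCL against GCB DLBCL they went to 4 in the lines with ZNF593 reads, 4 without the 8 shallow libraries and 1 with the library class as a covariate (12 to 18 leaving out 1 line, 18 without DOHH-2). MCL against ABC DLBCL gave 1, but 2 without the shallow libraries and 2 in the lines the labels mark as re-analysed (1 to 2). MCL against BL gave 1, but 4 with ZNF593 reads, 3 without the shallow libraries and 0 in re-analysed lines, median-centred, quantile-normalized or unfiltered (0 to 2). ABC against GCB DLBCL gave 1, but 0 with ZNF593 reads, without the shallow libraries, in re-analysed lines, with the covariate or unfiltered (0 to 1). BL against ABC DLBCL gave 1, but 2 with ZNF593 reads, 2 without the shallow libraries and 0 in re-analysed lines (0 to 1). BL against GCB DLBCL stayed at 0 in all of these. The F test gave 11, but 5, 7, 6 and 3 with ZNF593 reads, without the shallow libraries, in re-analysed lines and with the covariate (8 to 16). In the 25 lines, leaving out each line, added after the data were seen, gave 1 to 6 from 4 for MCL against GCB DLBCL, 0 to 2 from 1 against ABC DLBCL, 0 to 6 from 4 against BL, 0 to 1 for ABC against GCB DLBCL, 0 for BL against GCB DLBCL, 1 to 3 from 2 for BL against ABC DLBCL and 3 to 7 from 5 in the F test. Over the 12 members above the margin in every line the mean was 10.05 in MCL, 9.47 in GCB DLBCL, 10.0027 in ABC DLBCL and 9.65 in BL, and leaving out 1 line gave 8.76 to 9.18, 7.55 to 7.84, 8.18 to 8.68 and 7.33 to 7.72 over all members. Of 31 named differences none reversed, and 6 kept their call in all 9 alternatives. The cause was not tested, though fewer lines and fewer genes enter some fits. In the shallow libraries members with few reads were not separable from 0. No paired analysis was possible because the labels carry no replicate numbers and each line has 1 library.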

Other observations

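Some members differed widely between lines of the same pathology. TRIM22, which encodes a tripartite motif protein, lay at 6.37 in Pfeiffer (91 reads) and at 9.39 or more in every other line. MX2 had 14 reads in SU-DHL-5 and 39 in SU-DHL-4, against 9671 in SU-DHL-10, all 3 of them GCB DLBCL lines with ZNF593 reads. IFIH1 had 8 reads in SU-DHL-4, against 1941 in SU-DHL-5. IFITM2 was lowest of all lines in the MCL line Z-138 at 5.18 and highest in the MCL line Mino at 13.78.

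Daudi stood apart from the other BL lines in several members. LY6E lay at 11.35 there and at 4.84 and 4.80 in Raji and Ramos, IFI44L at 9.41 against 5.17 and 4.55, RSAD2 at 7.88 against 4.84 and 4.55, and CMPK2 at 8.07 with 4.55 in both others. IRF7 was lowest in Daudi, at 6.56 against 8.17 and 8.97. In ABC DLBCL, OAS1 reached 14.51 in OCI-Ly10, the highest of the 34 lines.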
